A study of Homo sapiens with 4 samples.

Results

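The genes described here are a set of 10 named for their place in Wnt signaling: the Wnt carrier WLS, the Wnt-modifying enzyme PORCN, the ligands WNT5A, WNT7A and WNT7B, the secreted factors DKK1 and DKK3, the nuclear cofactor PYGO1, and AXIN2 and LEF1, which are widely read as transcriptional targets of the pathway. They were chosen by name, with earlier results of these data known, and matched to probe sets by gene symbol. Of the 10, 9 had a named probe set, 1 each, out of 17687 genes in all. PORCN was not analysed here. RNA came from 4 cultures of prostate cancer cells, each read on 1 Clariom S array, and the values are log2 expression values after robust multi-array average (RMA) normalization. PC3 and C42B are established prostate cancer lines, PC3 from a bone metastasis and C42B a castration-resistant descendant of LNCaP. Each was stably transfected with a miR-410 plasmid or its scrambled counterpart (miR-CON) and was then selected in puromycin. In the miR-410 plasmid (pMIR), a CMV promoter drives human pre-miRNA hsa-miR-410 with a GFP reporter. Thus all 4 cultures carried a vector and had been through selection, and each combination of line and construct was 1 stable culture with 1 array.

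The labels were not free of conflict. In the pair titled PC3, the title of each array names one construct and its genotype and description fields name the other, whereas in the pair titled C42B they name the same one. Arrays are therefore called by their titles: the PC3-titled control and miR-410 arrays, and the C42B-titled control and miR-410 arrays. Line markers went against the titles as well. Of 10 measured markers of the LNCaP lineage, 8 were lower and 0 higher on the C42B-titled arrays by the test of the lines described below, and of 12 measured PC3 markers 11 were higher and 0 lower. KLK3, which encodes prostate-specific antigen, differed by -4.15 (log2, C42B-titled minus PC3-titled) and ANXA1, a PC3 marker, by 7.95. The summed log2 level of the LNCaP markers was 89.1 and 91.8 on the PC3-titled arrays and 63.3 and 59.2 on the C42B-titled ones, that of the PC3 markers 68.4 and 68.4 against 120.7 and 123.3. A difference between the titled lines is thus one between these pairs of arrays, whichever line each held. The median over all probe sets lay between 6.34 and 6.39 on the 4 arrays, and Pearson's r across probe sets was 0.99 and 0.98 within the pairs and 0.881 to 0.886 between them.

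Wnt proteins are lipid-modified growth factors. In the endoplasmic reticulum the acyltransferase PORCN attaches a fatty acid to them, and the membrane protein WLS (Wntless) then binds the modified ligand and carries it to the cell surface. At a receiving cell, a Wnt bound to a Frizzled receptor and an LRP5 or LRP6 coreceptor halts the destruction of beta-catenin, which enters the nucleus, joins TCF/LEF factors and, through BCL9 and Pygopus proteins, turns on target genes. Other Wnts, WNT5A above all, also act through ROR and RYK receptors without beta-catenin. In the prostate, Wnt ligands are known from development of the gland and from advanced cancer, and DKK1 is known from bone metastases of prostate cancer.

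By design, the constructs of a pair differed in the miR-410 hairpin. Its mature strands are shown here because a seed defines which transcripts a microRNA can pair with. Both are from RefSeq (GRCh38.p14, chromosome 14, plus strand, at chr14:101065925-101065945 and chr14:101065961-101065981), written 5′ to 3′ with the seed, bases 2 to 8, in capitals.
hsa-miR-410-5p: aGGUUGUCugugaugaguucg
hsa-miR-410-3p: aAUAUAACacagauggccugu
The seeds differ between the strands. Mature miR-410 was not read by these arrays, and sites in the members' transcripts were not analysed here.

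**Figure D1:**
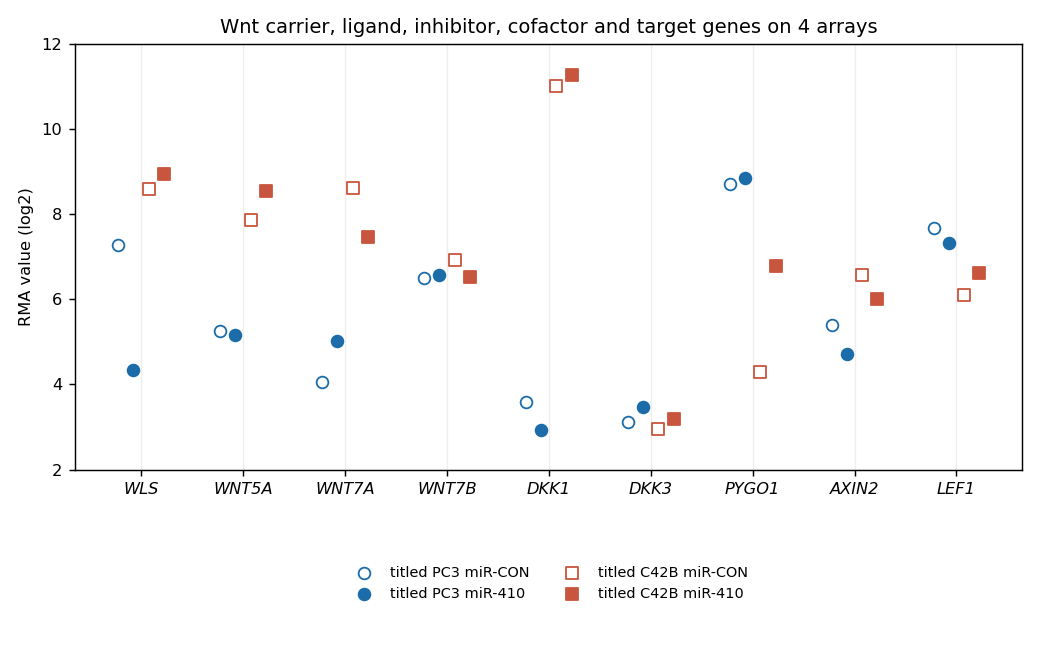
RMA values (log2, vertical axis) of the 9 measured genes on each of the 4 arrays; circles are arrays titled PC3, squares arrays titled C42B, open symbols miR-CON and filled symbols miR-410 by title. DKK1 lies at 2.93 and 3.59 on the PC3-titled arrays and at 11.02 and 11.28 on the C42B-titled arrays, while the values of WNT7B and DKK3 overlap between the lines.

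Between the lines, most of these genes differed, and in both directions. DKK1, WNT5A, WNT7A and AXIN2 were higher on the C42B-titled arrays, PYGO1 and LEF1 were lower, and WLS, WNT7B and DKK3 did not pass the test. The test was limma's moderated test of the 2 C42B-titled arrays against the 2 PC3-titled arrays, two-sided, with Benjamini-Hochberg adjustment over all 17687 genes and an adjusted p under 0.05 as the threshold. It called 6 of the 9 members, 4 higher and 2 lower, where 25.8% of all genes were called (11.7% higher and 14.1% lower on the C42B-titled arrays). As the members were chosen with earlier results known, this count is a description and not a test of the set. The arrays of a line carry different constructs, so the spread the test uses includes any difference between constructs, and the p-values measure only the spread between these arrays, which may be technical. In bulk RNA, fewer cells that express a gene and less RNA per cell cannot be told apart. An exact permutation test of 2 arrays against 2 cannot go below p = 0.333.

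**Figure D2:**
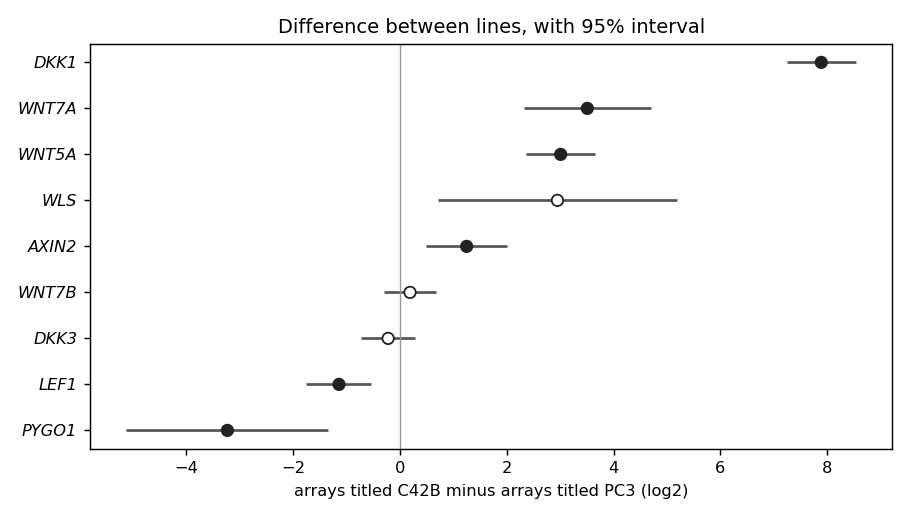
Difference between lines for the 9 measured genes, C42B-titled minus PC3-titled arrays (log2, horizontal axis), as points with limma's 95% interval; filled points have an adjusted p under 0.05 over all genes. The interval of DKK1 runs from 7.24 to 8.54, far from those of the other genes, and the interval of WLS (0.72 to 5.18) is the widest.

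The ligands WNT5A and WNT7A lay below the median of all genes on the PC3-titled arrays and were higher by 3.01 and 3.51 log2 units on the C42B-titled arrays, where they lay above it. WNT5A, a ligand that signals mainly outside the beta-catenin route, had values of 5.25 (control) and 5.15 (miR-410) on the PC3-titled arrays and of 7.87 and 8.54 on the C42B-titled arrays. All C42B-titled values lay above all PC3-titled values. Such a separation, in one direction or the other, was seen for 7 of the 9 members and for 64.5% of all genes. The difference was 3.01 ± 0.26 (log2, SE, 2 arrays against 2), an 8.04-fold higher level with an adjusted p of 0.00115. WNT7A, a ligand of epithelial tissues that can signal through beta-catenin, had values of 4.05 and 5.01 on the PC3-titled and 8.62 and 7.46 on the C42B-titled arrays, control first. Again the lines did not overlap, although the arrays within each line stood about 1 log2 unit apart. It was higher by 3.51 ± 0.48, which is 11.4-fold, with an adjusted p of 0.0054. WNT7B, its close relative, was at 6.50, 6.57, 6.92 and 6.53 on the arrays taken in that order. These overlap, and the difference of 0.19 had a 95% interval from -0.30 to 0.67 (adjusted p = 0.555).

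DKK1, a secreted protein that blocks the LRP5 and LRP6 coreceptors, showed the greatest difference of the set and ranked 7 of 17687 genes by size. Its values were 3.59 and 2.93 on the PC3-titled arrays, among the low values of those arrays, and 11.02 and 11.28 on the C42B-titled arrays. The lines were separated by 7.89 ± 0.26 (log2, SE), a 237-fold difference on the RMA scale with an adjusted p of 0.000101. RMA values near the low end of an array can hold mostly background signal, which compresses folds, and no detection call was used here. DKK3, which is named as a Dickkopf protein but is not known to block the LRP coreceptors as DKK1 does, had values of 3.11, 3.47, 2.96 and 3.19. It was the 1 member that lay below the median of all genes on every array, and its difference was -0.22 (95% interval -0.72 to 0.28, adjusted p = 0.492).

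DKK1 is itself known as a target of beta-catenin and TCF. Promoters of all members were searched, and that of DKK1 is shown because it alone held a match. The window searched in each RefSeq promoter ran from 250 bases before the gene's start to 50 bases after it, and the letters searched were CTTTG followed by 2 bases that are each A or T, on both strands, the core recognised by TCF/LEF factors. Of 35116 promoter windows, 13.8% held a match. Among the 11 windows of the 7 members that had one (WLS, PORCN, WNT5A, WNT7A, DKK1, PYGO1 and LEF1), 1 window held a match, that of DKK1. It holds CTTTGAA, whose first base is at -95 from the gene's start, and further on CTTTGTT, whose first base is at -76, each on the strand of the gene. In GRCh38.p14 on the plus strand, at chr10:52314184-52314213, with the matches in capitals, it reads as follows.
DKK1 promoter: cgCTTTGAAatcccatcccggCTTTGTTgt
A match is a description of these letters and was not tested as a binding site.

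PYGO1, one of the pair of Pygopus proteins that link BCL9 and beta-catenin to chromatin, was high on the PC3-titled arrays, at 8.70 (control) and 8.85 (miR-410). On the C42B-titled arrays it was at 4.30 and 6.78. The 4 values do not overlap between lines, but the arrays of the C42B-titled pair stood 2.48 apart. Most genes next to PYGO1 on chromosome 15 were also lower on the C42B-titled arrays, as given below. The difference between lines was -3.23 ± 0.76 (log2, SE), a 9.40-fold lower level on the C42B-titled arrays (adjusted p = 0.0302). Without the PC3-titled control array it was -3.31 (adjusted p = 0.0655) and without the PC3-titled miR-410 array -3.16 (adjusted p = 0.0774), so the call was lost in each case. Without the C42B-titled control array it was -1.99, a change of over 1.5 times, with an adjusted p of 0.00263.

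AXIN2 and LEF1, read as targets of the pathway, differed in opposite directions between the lines. AXIN2, a scaffold of the complex that destroys beta-catenin, had values of 5.39 and 4.71 on the PC3-titled and 6.58 and 6.01 on the C42B-titled arrays, control first. It was higher on the C42B-titled arrays by 1.25 ± 0.31 (log2, SE, adjusted p = 0.0346), a 2.38-fold difference. Only 1 of its 4 values, that of the C42B-titled control array, reached its array's median of all genes. LEF1, a DNA-binding partner of beta-catenin, was at 7.68, 7.33, 6.11 and 6.62 on the arrays in that order and was lower on the C42B-titled arrays, with a log2 difference of -1.14 ± 0.24 (adjusted p = 0.0224). Neither gene's values overlapped between the lines. The call of AXIN2 was lost without the PC3-titled miR-410 array (0.91, adjusted p = 0.147) and without the C42B-titled control array (0.97, adjusted p = 0.0912), and that of LEF1 without the PC3-titled control array (-0.97, adjusted p = 0.113).

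WLS was lower on both PC3-titled arrays than on either C42B-titled array, but the PC3-titled arrays differed so much from each other that the comparison of the lines missed the threshold. Its values were 7.28 on the PC3-titled control array, 4.35 on the PC3-titled miR-410 array, and 8.59 and 8.94 on the C42B-titled arrays. The C42B-titled arrays were higher by 2.95 ± 0.90 (log2, SE, 95% interval 0.72 to 5.18, adjusted p = 0.0642). With the construct by title as a term in the model the adjusted p was 0.0465, and over all 10 alternatives it ran from 0.000439 to 0.148. Without the PC3-titled control array the difference was 4.42 (adjusted p = 0.000439) and without the PC3-titled miR-410 array 1.48 (adjusted p = 0.0257).

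Within the pairs, constructs were compared with 1 array each, so no error or p-value goes with these differences. All are given as the miR-410 array minus the control array by title. For the PC3-titled pair, the genotype and description fields give the opposite sign, so each value of that pair turns its sign if those fields are right. For WLS, the study lists a 7.63-fold increase with miR-410, under the other line, C42B. The PC3-titled pair gave the same fold here, lower by title and higher by the genotype field. On the PC3-titled arrays 1 of the 9 members differed by at least 2-fold (0 higher and 1 lower), where 1.1% of all genes did (0.441% higher and 0.656% lower). On the C42B-titled arrays 2 of 9 did (1 higher and 1 lower), where 3.6% of all genes did (1.35% higher and 2.26% lower). Over all genes, the absolute log2 difference had a median of 0.164 in the PC3-titled and 0.245 in the C42B-titled pair.

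**Figure D3:**
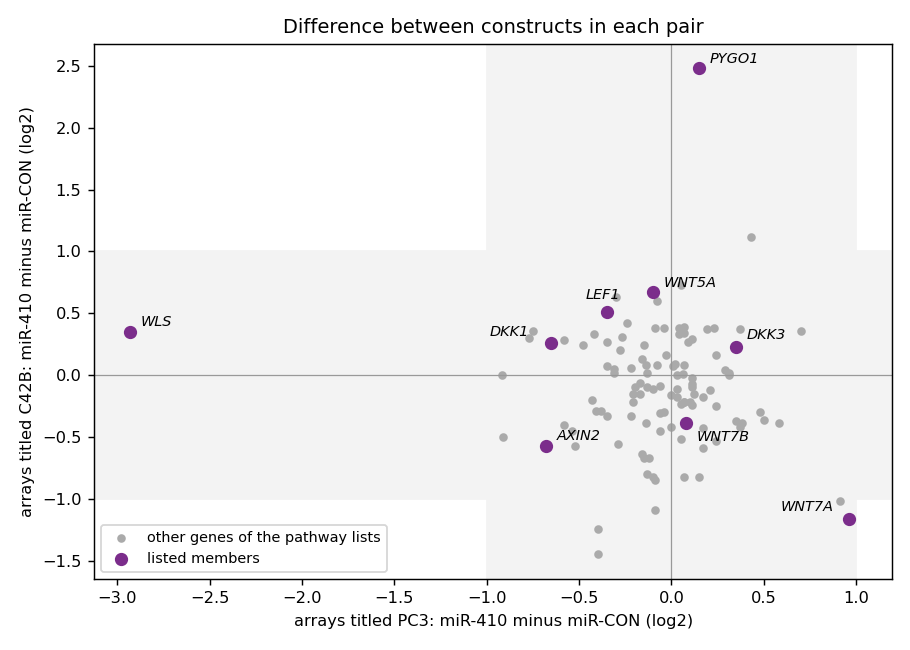
Difference between constructs, miR-410 minus miR-CON by title (log2), in the pair titled PC3 (horizontal axis) and the pair titled C42B (vertical axis); purple points are the 9 measured members, grey points the other measured genes of the pathway lists, and shading marks less than 2-fold in a pair. WLS stands alone at -2.93 on the horizontal axis and PYGO1 at 2.48 on the vertical axis.

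WLS, the Wnt carrier, was at 7.28 on the PC3-titled control array and 4.35 on the PC3-titled miR-410 array, a log2 difference of -2.93 or a 7.63-fold lower level. This was rank 4 from the lowest of the 17687 genes in that pair, and by the genotype field it becomes a difference of 2.93 at rank 4 from the highest. On the C42B-titled arrays the difference was 0.35, a 1.27-fold higher level, at rank 3120 from the highest. PYGO1 showed the converse. It had the rank of 5 from the highest of all genes on the C42B-titled arrays, at 2.48 or 5.57-fold, and a difference of 0.15 on the PC3-titled arrays. Each of these 2 large differences rests on 1 value below its array's median of all genes, 4.35 for WLS and 4.30 for PYGO1.

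By title, WNT7A differed in opposite directions in the pairs, whereas by the genotype field it was lower in both (-0.96 and -1.16). By title, it was 1.95-fold higher (0.96, rank 96 from the highest) on the PC3-titled miR-410 array. On the C42B-titled miR-410 array it was 2.24-fold lower (-1.16, rank 303 from the lowest). WNT5A differed by -0.10 on the PC3-titled and 0.67 on the C42B-titled arrays, and WNT7B by 0.08 and -0.39. The 3 ligands thus had no common direction in either pair.

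DKK1 had a difference of -0.65 on the PC3-titled arrays, between values that are both low, and of 0.26 on the C42B-titled arrays, where it is high. For DKK3 the differences were 0.35 and 0.23. Of the target genes, AXIN2 was lower with miR-410 by title in each pair, with differences of -0.68 (PC3-titled) and -0.57 (C42B-titled), and LEF1 had differences of -0.35 and 0.51. In all, 6 of the 9 members had opposite signs in the pairs and 3 had like signs by title. By the genotype field this reverses, with 6 like and 3 opposite (AXIN2, DKK3 and PYGO1).

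The one test of the construct that 4 arrays allow, limma with the line as a block and 1 residual degree of freedom, asks for a difference shared by both pairs. It called 0 of 17687 genes after adjustment (0% of all), with 799 genes (4.52%) at an unadjusted p under 0.05. No other tool was run on it. By title, AXIN2 was the 1 member of 9 at that unadjusted level, with a shared difference of -0.62 ± 0.18 (log2, SE, adjusted p = 0.882). For WLS the estimate was -1.29 ± 0.75 and for PYGO1 1.31 ± 0.55, each with an adjusted p of 0.882. With the construct by the genotype field, 0 genes were called as well, 539 lay under the unadjusted threshold, and the members there were 2 others, WNT7A (-1.06 ± 0.20) and WLS (1.64 ± 0.57), each with an adjusted p of 1.0, while AXIN2 was at 0.05 ± 0.33. Which members share a direction thus depends on the label used.

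The rest of the pathway was read through 9 lists of genes, which together hold 122 genes, 116 of them measured. Of these, 15 were higher and 15 lower on the C42B-titled arrays, 25.9% against 25.8% of all genes, so the share called was close to that of the arrays as a whole. Their median difference was 0.02, beside -0.03 over all genes. Each single list below is short, and its count is to be read against the same 25.8% (11.7% higher and 14.1% lower on the C42B-titled arrays).

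**Figure D4:**
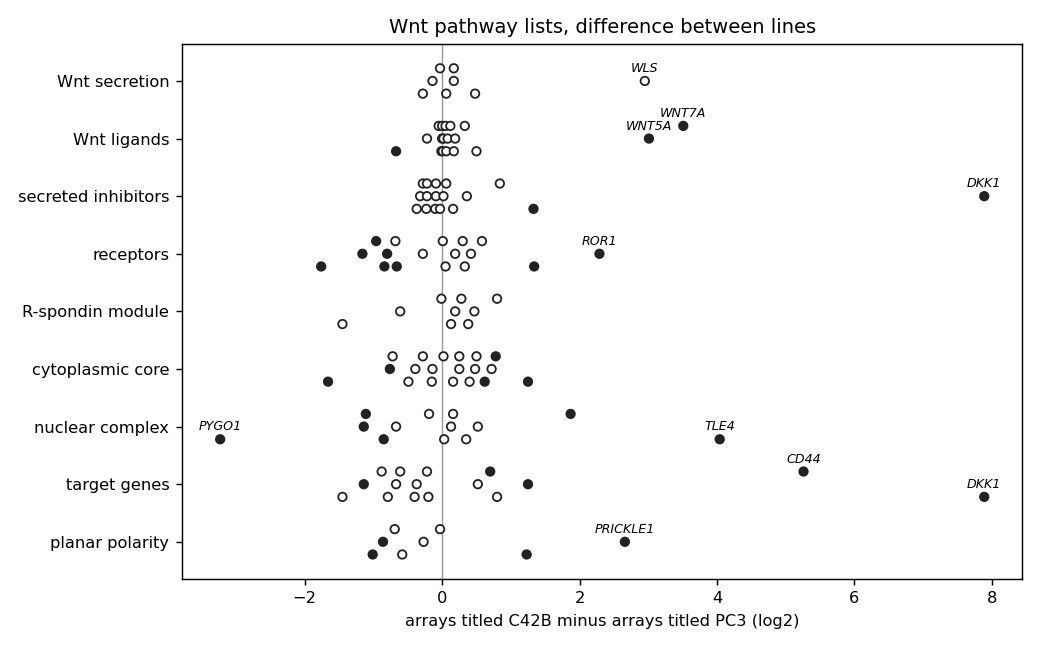
Difference between lines, C42B-titled minus PC3-titled arrays (log2, horizontal axis), of each measured gene in the 9 pathway lists (vertical axis, with points spread for legibility); filled points have an adjusted p under 0.05 over all genes and names mark differences of at least 2. DKK1, CD44 and TLE4 lie furthest to the right, and most Wnt ligands and secreted inhibitors lie near 0.

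Of 8 measured genes of the secretory machinery, WLS included, 0 passed the test between the lines. The 7 others (p24 cargo receptors TMED2, TMED5 and TMED10, retromer subunits VPS26A, VPS29 and VPS35, and SNX3, a sorting nexin that returns WLS from endosomes) had log2 differences from -0.28 (VPS29) to 0.48 (VPS26A). On the PC3-titled arrays these 7 differed by -0.08 (VPS35) to 0.23 (SNX3) between constructs, while WLS differed by -2.93. On the C42B-titled arrays they ran from -0.82 (TMED10) to 0.39 (VPS26A). Among 18 measured Wnt ligands, 2 were higher (WNT5A and WNT7A) and 1 lower, WNT10B, with values of 7.01, 6.86, 6.15 and 6.39 and a difference of -0.67 ± 0.18 (adjusted p = 0.0448). The other 15 did not pass, and 14 of the 18 lay below the median of all genes on every array.

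The list of secreted inhibitors also holds membrane proteins, and of its 17 genes 2 were higher on the C42B-titled arrays and 0 lower. Beside DKK1 this was TRABD2A, a membrane protease gene known as TIKI1 that inactivates Wnts, with values of 4.95, 4.54, 6.22 and 5.93 and a difference of 1.33 ± 0.22 (adjusted p = 0.00982). The SFRP genes, WIF1, NOTUM and SOST did not pass, and 16 of the 17, all but DKK1, were below the array median throughout.

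Receptors differed in either direction. Of 17 measured, 2 were higher and 6 lower on the C42B-titled arrays (47.1% called, beside 25.8% of all genes), with a median of 0.01. ROR1, a receptor tyrosine kinase of WNT5A, was higher by 2.29 ± 0.18 (adjusted p = 0.000901), from 6.93 and 7.24 on the PC3-titled to 9.38 and 9.37 on the C42B-titled arrays. FZD4 was higher by 1.34 ± 0.22 (adjusted p = 0.00975). FZD3 (-1.76 ± 0.20) and FZD9 (-1.16 ± 0.17) were lowest, with adjusted p-values of 0.00316 and 0.00644, and the coreceptor gene LRP6 was lower too (-0.84 ± 0.16, adjusted p = 0.0165). None of the receptors differed by 2-fold between constructs in either pair. In the R-spondin module, which sets how many Frizzled receptors stay at the surface, 0 of 9 genes passed between the lines.

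Inside the cell, 5 of 19 genes of the cytoplasmic core passed, 3 higher and 2 lower, led by TNKS, which encodes the tankyrase that marks AXIN proteins for destruction (-1.66 ± 0.24, adjusted p = 0.00663), while CTNNB1, the beta-catenin gene, had values of 10.75, 10.48, 10.94 and 11.25 and did not pass (0.48, 95% interval -0.02 to 0.97, adjusted p = 0.143). In the nuclear complex 2 of 13 genes were higher and 4 lower. TLE4, a Groucho-type corepressor gene, was higher by 4.04 ± 0.20 (adjusted p = 0.000204), with values of 3.45 and 3.23 on the PC3-titled and 7.55 and 7.22 on the C42B-titled arrays. TCF7L1, a TCF factor that mainly represses, was higher by 1.87 ± 0.22 (adjusted p = 0.00355), and CBY1, an antagonist of beta-catenin, was lower (-1.11 ± 0.18, adjusted p = 0.00991). PYGO2, the partner of PYGO1 in the family, had values of 7.74, 7.63, 6.68 and 7.34 and a difference of -0.67 (95% interval -1.31 to -0.03, adjusted p = 0.117). In the planar polarity list, 2 of 8 genes were higher, led by PRICKLE1 (2.66 ± 0.19, adjusted p = 0.000625) and PRICKLE2 (1.23 ± 0.18, adjusted p = 0.00654), and 2 lower, DAAM1 (-1.01 ± 0.16, adjusted p = 0.00843) and CELSR2.

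The target genes as a list had no single direction between the lines. Of 16 measured, 4 were higher (DKK1, CD44, AXIN2 and CCND1) and 1 was lower (LEF1) on the C42B-titled arrays, with a median of -0.30. CD44 (5.26 ± 0.17, adjusted p = 0.000101) is also one of the PC3 markers given above. CCND1, the cyclin D1 gene, differed by 0.70 ± 0.18 (adjusted p = 0.0395). RNF43, a ubiquitin ligase that removes Frizzled receptors and is induced by the pathway, had values of 7.74, 7.34, 6.81 and 5.36 and a difference of -1.45 (95% interval -2.64 to -0.27, adjusted p = 0.0785).

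Between constructs, the target genes lay mostly below 0 in each pair by title. On the C42B-titled arrays, 4 of 16 were at least 2-fold lower with miR-410 by title, where 2.26% of all genes were: RNF43 (-1.45), TCF7L2, a TCF factor gene (-1.24), APCDD1, a membrane inhibitor of the pathway (-1.09), and LGR5, an R-spondin receptor gene (-1.02). TNFRSF19 was the 1 target at least 2-fold higher (1.12). The list's median was -0.43 there, beside 0.01 over all genes, and 11 of 16 genes were below 0. This lean was not particular to the targets. In the same pair 14 of 18 ligands and 7 of 9 genes of the R-spondin module, which shares genes with this list, were below 0. Of the secretory genes 1 of 8 was, and over all pathway lists 66 of 116 were. On the PC3-titled arrays 12 of 16 were below 0, with a median of -0.33 beside -0.01 over all genes, and 0 differed by 2-fold. There 7 of 9 genes of the R-spondin module and 61 of 116 over all pathway lists were below 0. By the genotype field, 12 of 16 were above 0 in that pair, with a median of 0.33, opposite to the C42B-titled pair. LGR5 had differences of 0.91 on the PC3-titled and -1.02 on the C42B-titled arrays and APCDD1 of -0.09 and -1.09, both from values below the array median on all arrays. With 1 array for each construct these counts have no test, and the genes of the list share their arrays.

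PYGO1 was not alone on its chromosome in the C42B-titled pair. Among measured genes in RefSeq order on chromosome 15, the 5 on each side of PYGO1 were all higher on the C42B-titled miR-410 array, 10 of 10, with log2 differences from 0.32 (PIERCE2) to 1.14 (DNAAF4) and a median of 0.87, beside 2.48 for PYGO1 itself. They include NEDD4, a ubiquitin ligase gene (0.98), PIGB, an enzyme of GPI anchor synthesis (1.10), RAB27A, a small GTPase of secretory vesicles (0.80), and RFX7, a transcription factor gene (0.88). Over all 17444 such windows of 10 neighbours, 4 (0.0229%) had a median at least as high. In the PC3-titled pair the same 10 genes were also all higher by title, from 0.03 (PIGBOS1) to 0.67 (RAB27A). Their median there was 0.26, beside -0.01 over all genes. Between the lines, all of the 10 but NEDD4 (0.29) were lower on the C42B-titled arrays, as PYGO1 was. Their differences ran from -2.32 (PRTG) and -2.30 (MNS1) to -0.41 (DNAAF4), beside a median of -0.03 over all genes. Whether the stretch as a whole differed between the lines was not tested. Over 25 genes on each side the median in the C42B-titled pair was 0.32, with 35 of 50 higher. Of 16512 such wider windows, 225 (1.36%) had a median at least as high. Some of these genes lie close together or overlap, so they are not independent, and the stretch was looked at after the value of PYGO1 was seen. Adjacent windows share most of their genes, and the window of PYGO1 is counted among them. The shares of windows are thus a description and not a test.

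**Figure D5:**
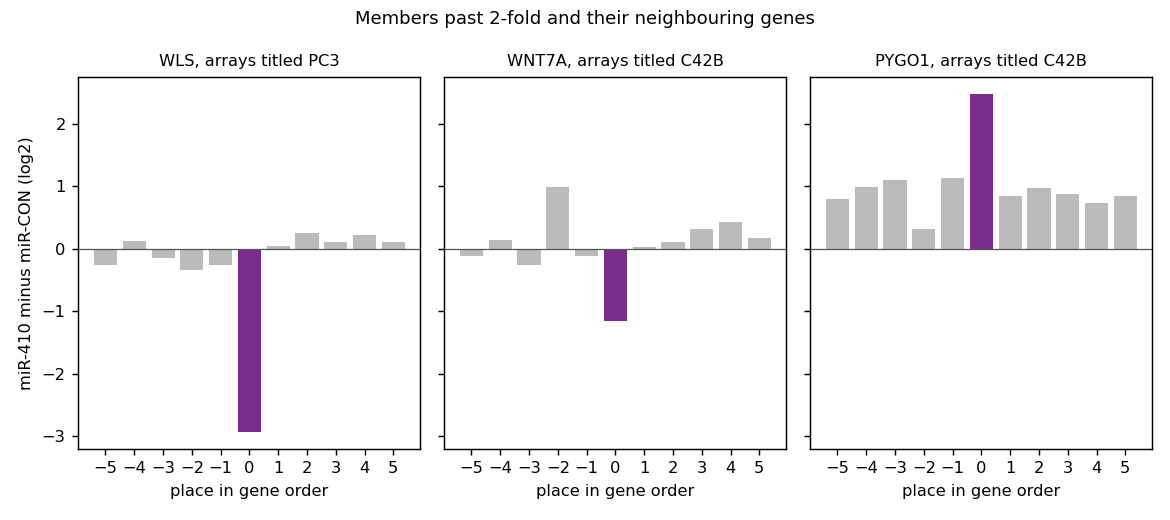
Difference between constructs, miR-410 minus miR-CON by title (log2, vertical axis), of the members past 2-fold (purple) and the 5 measured genes on each side (grey), by place in the gene order (horizontal axis). The 10 neighbours of PYGO1 are all above 0, while those of WLS lie between -0.33 and 0.25.

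WLS and WNT7A had no such surroundings. The 10 neighbours of WLS on chromosome 1 ran from -0.33 (GNG12) to 0.25 (DEPDC1) on the PC3-titled arrays, with a median of 0.08 against -2.93 for WLS, and those of WNT7A on chromosome 3 ran from -0.26 (NUP210) to 0.99 (HDAC11) on the C42B-titled arrays, with a median of 0.13 against -1.16.

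For each member that ranged over more than 1 log2 unit, the genes whose 4 values, centred on their own mean, lay nearest by Euclidean distance were looked up among all genes. AXIN2 had the closest neighbour, COL8A1, a collagen gene, at a distance of 0.06 (log2), with values of 6.07, 5.46, 7.27 and 6.72. LEF1 was nearest to USP54 (0.09), PDS5B (0.10) and ZSCAN29 (0.11), and WNT5A to DDX60L (0.13), TRPV4 (0.13) and ERAP2 (0.17). DKK1 was nearest to TIMP1 (0.18), an inhibitor of metalloproteinases, followed by SRGN (0.37) and SLCO1B3 (0.46). For WNT7A these were RDH10 (0.42), CCN3 (0.42) and RBP4 (0.55), and for PYGO1 WASF3 (0.57), KANSL1L (0.77) and NAPRT (0.84). WLS was further from its nearest genes than any other of these members. They were FXYD5 (0.98), SLITRK6 (1.00) and SAMD9 (1.02), each also lowest on the PC3-titled miR-410 array but closer to its control than WLS was, as SLITRK6 shows, which had values of 9.14, 6.91, 10.16 and 10.13. With 4 arrays, such likeness is a description only.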

How the data were processed

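Total RNA from 4 stably transfected cultures was labeled with the GeneChip WT PLUS kit and hybridized to Clariom S human arrays, 1 per culture. Partek served the authors for import of the scanned arrays and RMA normalization, which gave the deposited log2 values, with a value for each probe set on each array. These tool names also stand in the submitters' processing notes. RMA sets all arrays to one distribution, so a shift common to most genes cannot be seen. Scanner files and detection calls were not used here. Precision is limited by how few arrays there are.

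Of 21448 probe sets, 17709 had 1 gene symbol in the platform's annotation, 0 had several and 3739 were not listed. All 17709 matched NCBI RefSeq (GRCh38.p14) by gene ID, and probe sets of 20 genes were averaged, giving 17687 genes. Groups were taken from the titles. Lines were compared with limma 3.58.1 in R 4.3.3 (lmFit and eBayes, 2 residual degrees of freedom) and constructs within a pair by fold alone, at 2-fold. On simulated data for the comparison of lines over 17687 genes, calls were made for 87 of 100 genes given a shift of 2, for 98 of 100 given one of 4 (log2) and for 6 of 17487 left unshifted. Alternatives were the construct in the model, a filter on dim genes, centring, a loess trend (span 0.4), a prior trend, the brightest probe set, folds of 1.5 and 3, and each array left out.

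Members and lists were chosen with earlier results of these data known. Named genes were the members, up to 2 other genes per list and direction past 2-fold in a comparison, and the 3 genes nearest in pattern to each member ranging over 1 log2 unit. WNT10B, LRP6, CTNNB1, PYGO2, CELSR2, CCND1 and the lesser secretory genes were named after their values were seen. TIKI1 was matched as TRABD2A and GPR177 is an older name of WLS. Python 3.11.15, NumPy 2.4.6, pandas 2.3.3, statsmodels 0.14.6 and Matplotlib 3.10.9 were used.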

Additional observations from a re-analysis of the deposited data

Results flagged for a closer look

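For 6 members the difference between constructs had opposite signs in the pairs, each pair with 1 array per construct, so the difference between pairs was not tested. The C42B-titled pair minus the PC3-titled pair (log2, miR-410 minus miR-CON by title in each) was 3.28 for WLS, 0.77 for WNT5A, -2.12 for WNT7A, -0.46 for WNT7B, 0.92 for DKK1 and 0.86 for LEF1. WLS rests on its low value on the PC3-titled miR-410 array, WNT7A on shifts of similar size in each pair. With the construct of the PC3-titled pair taken from the genotype field, the sign of that pair turns: these 6 genes then have like signs, and the other 3 have opposite ones, AXIN2 (0.68 and -0.57), DKK3 (-0.35 and 0.23) and PYGO1 (-0.15 and 2.48, PC3-titled pair first).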

How the results depend on the processing

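Of 87 alternative values of the members' line differences, 75 kept direction and side of the threshold, 5 lost the call, 6 gained it (all WLS) and 1 turned, WNT7B, at -0.01 without the C42B-titled control array (-0.01 to 0.38 with each array left out). Members called, 6 of 9, ranged from 5 to 6 with an array left out and from 5 (of 6 bright enough to keep) to 7 otherwise, and genes called from 2260 (without the PC3-titled miR-410 array; 2426 without the PC3-titled control array) to 5040. The cause was not tested. At 2-fold, 194 genes differed on the PC3-titled and 637 on the C42B-titled arrays. These counts were 1158 and 2485 at 1.5-fold, 55 and 209 at 3-fold, and 73 and 393 among brighter genes, where fewer genes were counted. All 54 alternative values of the members' construct differences moved by less than the median absolute difference of their pair. The shared construct test called 0 genes under each of its alternatives, with 539 and 769 at an unadjusted p under 0.05. The labels number no replicates, so none could serve as a block. The line served as the block in the shared construct test, and the construct as a term in an alternative of the line test. Values near the low end of the arrays limit folds for DKK1, DKK3 and WNT7A. The same may hold for WLS, at 4.35 on the PC3-titled miR-410 array, and PYGO1, at 4.30 on the C42B-titled control array.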
